A study of Drosophila melanogaster with 3 samples.

Results

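Binding of Traffic jam (Tj) was examined at the genes that encode transfer RNAs (tRNAs) in the fruit fly Drosophila melanogaster. The genes were taken from the Ensembl annotation by their biotype. That rule uses no binding value, but it was chosen with earlier results of these data known. Of the 18164 annotated genes on chromosome arms 2L, 2R, 3L, 3R, 4 and X, 290 met that rule, none of them on 4. A gene was counted as bound when the summit of a reproducible peak lay within 1000 bp of its transcription start site (TSS), which for a tRNA gene was taken as its 5′ end. The data are chromatin immunoprecipitation with sequencing (ChIP-seq) from 3 biological replicates, each made from whole female adults of the strain tj-GFP. Their age is given as unknown. These flies carry tj fused at its C terminus to eGFP, and an antibody to GFP recovered the fusion from chromatin sheared to 200 to 800 bp (the labels' antibody entry itself reads tj). There was 1 group, with no second condition, so values describe where peaks lay and how they varied between replicates. Chromatin came from entire animals, so the cells in which a site was bound cannot be told, and a site bound strongly in few cells cannot be told apart from one bound weakly in many. Immunoprecipitates from untagged flies were not analysed here, and the part that the tag or the antibody plays in any signal was not tested.

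Transfer RNAs carry amino acids to the ribosome and read codons with their anticodon. Their genes are short and are transcribed by RNA polymerase III, which is recruited through TFIIIC and TFIIIB to a pair of promoter elements inside the gene, the A box and the B box. The genes of 1 isotype, meaning those that accept the same amino acid, often occur as identical copies that lie in clusters. Tj, a basic leucine zipper protein of the large Maf class, is known as a regulator of gene expression in somatic cells of the gonad. Large Maf proteins recognise sites built on the core TGCTGAC.

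The tyrosine family shows how similar the copies of a tRNA gene are and where they differ, and it had the highest bound share among isotypes. The 9 genes of the tRNA:Tyr-GTA-1 group are printed below in the direction of transcription, 5′ to 3′, from the NCBI Release 6 genome (dm6). They share their first 37 and last 36 bases, and the capitals mark the stretch between those ends, 20 to 113 bases long, in which they differ. Tyrosine tRNA genes are known to hold an intron next to the anticodon. Of these 9 genes, tRNA:Tyr-GTA-1-6 and tRNA:Tyr-GTA-1-9 were not bound by the reproducible list, and the first of them was bound in replicates 2 and 3 taken alone.
tRNA:Tyr-GTA-1-1 (chrX:21304441-21304535, minus strand): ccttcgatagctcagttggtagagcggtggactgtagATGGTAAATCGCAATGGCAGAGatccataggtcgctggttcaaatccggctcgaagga
tRNA:Tyr-GTA-1-2 (chr2L:2459924-2460044, minus strand): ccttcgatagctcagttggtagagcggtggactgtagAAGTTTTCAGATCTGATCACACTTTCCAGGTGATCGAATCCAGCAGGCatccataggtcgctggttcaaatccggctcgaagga
tRNA:Tyr-GTA-1-3 (chr2L:2462593-2462686, plus strand): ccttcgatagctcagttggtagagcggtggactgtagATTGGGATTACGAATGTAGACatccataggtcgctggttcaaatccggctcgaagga
tRNA:Tyr-GTA-1-4 (chr3R:8642333-8642425, minus strand): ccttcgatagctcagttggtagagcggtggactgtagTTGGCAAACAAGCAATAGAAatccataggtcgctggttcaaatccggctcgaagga
tRNA:Tyr-GTA-1-5 (chr3R:8642701-8642793, minus strand): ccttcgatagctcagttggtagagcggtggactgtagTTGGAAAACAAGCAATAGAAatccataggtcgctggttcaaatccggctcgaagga
tRNA:Tyr-GTA-1-6 (chr3R:8668116-8668208, minus strand): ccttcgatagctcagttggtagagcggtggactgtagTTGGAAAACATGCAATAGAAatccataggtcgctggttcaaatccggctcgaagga
tRNA:Tyr-GTA-1-7 (chr3R:8668612-8668705, minus strand): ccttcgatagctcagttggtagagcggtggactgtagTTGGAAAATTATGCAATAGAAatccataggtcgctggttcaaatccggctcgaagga
tRNA:Tyr-GTA-1-8 (chr3R:8669081-8669174, minus strand): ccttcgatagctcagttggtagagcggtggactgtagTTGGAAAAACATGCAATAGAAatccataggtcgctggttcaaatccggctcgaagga
tRNA:Tyr-GTA-1-9 (chr2L:7711476-7711661, plus strand): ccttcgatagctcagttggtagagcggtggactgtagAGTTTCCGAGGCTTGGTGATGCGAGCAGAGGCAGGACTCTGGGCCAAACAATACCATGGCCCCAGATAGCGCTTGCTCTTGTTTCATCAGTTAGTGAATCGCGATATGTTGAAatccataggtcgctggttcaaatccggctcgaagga

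The region around the strongest summit at a tyrosine gene shows where a peak lies against a gene with no protein-coding start within 1000 bp. It spans chr3R:8642368-8642667 and is printed on the plus strand, with the summit at base 8642518. The capitals mark 58 bases of tRNA:Tyr-GTA-1-4, which is transcribed from the opposite strand, so the summit lies 93 bp in front of the gene's start and outside the gene.
Region of the summit at tRNA:Tyr-GTA-1-4: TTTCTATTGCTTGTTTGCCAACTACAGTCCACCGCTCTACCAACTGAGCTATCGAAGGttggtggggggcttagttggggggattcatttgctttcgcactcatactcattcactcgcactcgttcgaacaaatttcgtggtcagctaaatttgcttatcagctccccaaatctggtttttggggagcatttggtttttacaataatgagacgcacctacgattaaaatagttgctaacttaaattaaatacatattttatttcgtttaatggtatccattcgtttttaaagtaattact

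Across the whole family, tRNA genes were bound about as often as other genes. A summit lay within 1000 bp of 100 of the 290 tRNA genes (34.5%, 95% Wilson interval 29.2 to 40.1%), against 32.5% of all annotated genes and 36.4% of protein-coding genes. The interval covers counting error over genes only, and neighbouring tRNA genes are not independent, because they can share a summit. In the separate replicate lists, cut to their 10688 strongest peaks, which is the length of the reproducible list, 107 tRNA genes were bound in replicate 1, 104 in replicate 2 and 105 in replicate 3. The replicate share of 36.3% ± 0.53 (SD, n = 3) lay next to the 35.7% ± 1.18 of protein-coding genes. Of the 290 genes, 80 had a summit in each of the 3 replicates, 25 had one in 2, 26 had one in 1, and 159 had one in none.

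The 100 bound genes had 76 distinct summits in 71 regions. Of these summits, 41 had a single tRNA gene within 1000 bp and 35 had 2 or more, up to 4. Conversely 77 genes had 1 summit and 23 had 2. By arm, the bound share ranged from 29.2% on X (7 of 24) to 37.8% on 2R (37 of 98), with 34.2% on 3R, 34.1% on 2L and 31.3% on 3L. The relaxed list made from the pooled replicates, which includes background, had a summit within 1000 bp of 115 of the 190 unbound genes, and of 215 tRNA genes in all (74.1%), against 54.6% of all annotated genes. The remaining 75 had none.

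Away from protein-coding starts, tRNA genes were bound more often than the rest of the annotated genes as a whole. Of 167 tRNA genes with no protein-coding TSS within 2000 bp, 55 were bound (32.9%, 95% Wilson interval 26.3 to 40.4%), against 11.3% of all annotated genes in that position and 9.68% of them once tRNA genes were left out. The tRNA share was 35.9% in replicate 1, 31.7% in replicate 2 and 34.7% in replicate 3, and that of the other genes was 9.45%, 9.40% and 9.91%. The difference was 24.5 percentage points ± 2.09 (SD, n = 3), in the same direction in 3 of 3 replicates and larger than their spread. The other genes so placed included 191 of 1812 ncRNA genes (10.5%), 9 of 91 genes of small nucleolar RNAs (snoRNAs, 9.89%), 3 of 137 pseudogenes (2.19%) and 0 of 99 rRNA genes. Genes of small nuclear RNAs (snRNAs), some of which RNA polymerase III also transcribes, had a share close to that of tRNA genes in the reproducible list, 6 of 20 (30.0%, 95% Wilson interval 14.5 to 51.9%), and 2, 6 and 4 of the 20 in replicates 1, 2 and 3. These 6 are not separate sites, because the neighbours snRNA:U6:96Aa, snRNA:U6:96Ab and snRNA:U6:96Ac shared a strongest summit. Among genes that did have a protein-coding TSS within 2000 bp the order was different, with 36.6% of tRNA genes, 29.8% of ncRNA genes and 39.3% of snoRNA genes bound.

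The share of tRNA genes bound was highest next to protein-coding starts and showed no steady fall beyond 500 bp. It was 53.1% (17 of 32) at up to 500 bp, 34.0% (16 of 47) at 501 to 1000 bp, 27.3% (12 of 44) at 1001 to 2000 bp, 35.1% (20 of 57) at 2001 to 5000 bp and 31.8% (35 of 110) beyond 5000 bp. Over the same classes the share of ncRNA genes fell from 39.4% to 7.20%, and that of snoRNA genes from 69.0% to 8.33%. The 167 distant genes lay in 91 separate loci, of which 31 held a bound distant gene (34.1%). Among those that stood alone, with no other tRNA gene within 5000 bp, 11 of 46 were bound (23.9%). Of 94 distant genes outside any protein-coding gene, 33 were bound (35.1%). Chromatin accessibility and the level of transcription were not measured here, and their part in these shares was not tested.

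**Figure D1:**
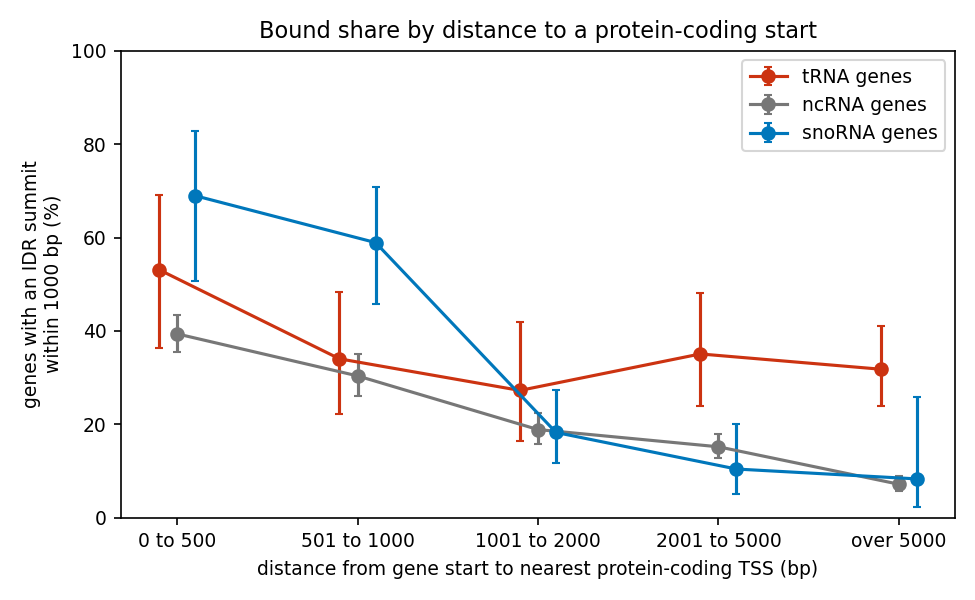
The plot of bound share by distance gives the percentage of tRNA, ncRNA and snoRNA genes with an IDR summit within 1000 bp (y axis) for 5 classes of distance from gene start to the nearest protein-coding TSS (x axis, bp), with 95% Wilson intervals. The tRNA share is 31.8% beyond 5000 bp, where the ncRNA share is 7.20% and the snoRNA share 8.33%.

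Many tRNA genes are exact copies of one another, and reads from such copies cannot be placed with certainty. The 290 genes had 95 distinct sequences, and 238 genes shared theirs with at least 1 other. Of these, 80 were bound (33.6%), against 20 of the 52 genes with a sequence of their own (38.5%). Among the distant genes, 11 of 30 with a sequence of their own were bound (36.7%). Inside protein-coding genes 44 of 134 tRNA genes were bound (32.8%), and outside them 56 of 156 (35.9%). No source used here says how the authors treated reads that map to several places, and the part of this in the shares was not tested.

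Isotypes differed widely in how many of their genes had a summit. The 290 genes fall into 22 isotype groups, in which initiator and elongator methionine tRNAs are counted apart. Tyrosine led with 8 of 10 genes bound, at 4 of its 5 loci, and 8, 9 and 9 genes were bound in replicates 1, 2 and 3. Glutamine followed with 8 of 12, asparagine with 6 of 10, leucine with 13 of 22, alanine with 9 of 17 and tryptophan with 4 of 8. Of the 8 bound glutamine genes, 5 lay in 1 cluster, whose strongest summit was 3 bp from a TSS of CG4238. Glutamate had 9 of 19, proline 8 of 17, glycine 8 of 20 and histidine 2 of 5.

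At the other end, cysteine tRNA genes had no reproducible summit at any of 7 genes. Lysine had 1 of 19, aspartate 1 of 14, threonine 2 of 17, elongator methionine 1 of 6 and isoleucine 2 of 11. Arginine, the largest group, had 5 of 26, phenylalanine 2 of 8, serine 5 of 20 and valine 4 of 15. Lysine genes numbered 3, 1 and 0 in the 3 replicates, aspartate genes 2, 3 and 0, and cysteine genes 3, 0 and 0. These few calls thus differed between replicates. The 1 aspartate gene bound in the reproducible list, tRNA:Asp-GTC-1-6, was bound in the strongest peaks of replicate 2 alone. With no protein-coding TSS within 2000 bp, 1 of 15 lysine and 0 of 6 cysteine genes were bound, beside 4 of 4 tyrosine, 1 of 3 glutamine and 6 of 10 asparagine genes. Copies of an isotype that lie in 1 locus share their surroundings, so the number of loci limits what these counts can show. A bound gene was present at 3 of 7 loci with glutamine genes, 3 of 5 with asparagine, 8 of 14 with leucine, 7 of 8 with alanine, 1 of 9 with lysine and 0 of 4 with cysteine genes. Differences between isotypes were not tested.

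**Figure D2:**
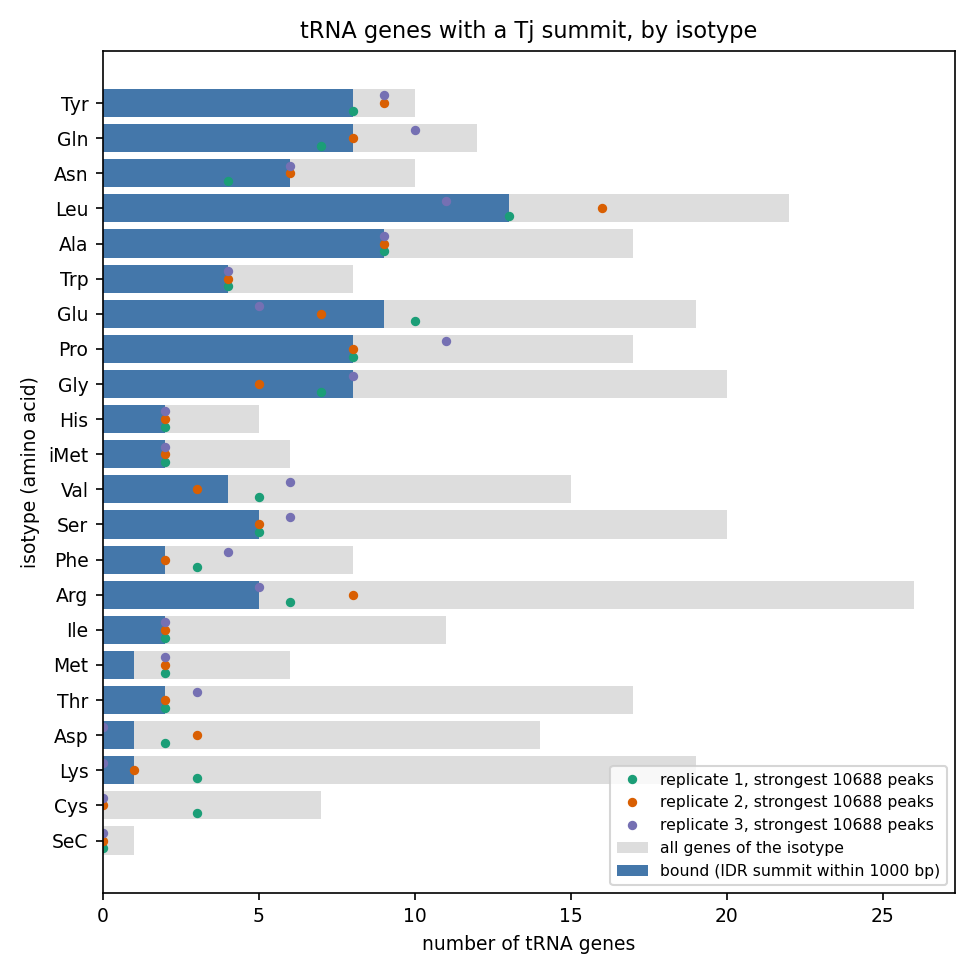
The chart of isotypes shows, for each amino acid, the number of tRNA genes (grey bar), the number with an IDR summit within 1000 bp (blue bar) and the number bound in each replicate's 10688 strongest peaks (points). Tyrosine stands at 8 of 10 and cysteine at 0 of 7, with Asp and Lys at 1 each.

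Translation starts with initiator methionine tRNA, and selenocysteine tRNA serves the rare codons for that amino acid. Of 6 initiator genes, tRNA:iMet-CAT-1-1 and tRNA:iMet-CAT-1-2 were bound, through 1 summit that lay 434 bp in front of the first start and 220 bp downstream of the second. The nearest summits to the other 4 lay 1158, 1489, 2261 and 22614 bp away. The single selenocysteine gene, tRNA:SeC-TCA-1-1, had its nearest summit at 1299 bp and was not bound.

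Signal at tRNA genes lay close to that of other sites in its median. The peak caller's signal has no stated unit and differed in scale between replicates, so each value was divided by that replicate's median over reproducible summits, and a relative signal of 1 is that median. The 76 summits at tRNA genes had a median relative signal of 0.95 in replicate 1, 1.01 in replicate 2 and 0.90 in replicate 3, and single summits ran from 0.35 to 8.88 as means of the 3. Over all 10688 summits the corresponding medians were 0.99 in each replicate. Of the 76, 41 (53.9%) were in the stronger part of the list when it was split at its median, and 59 (77.6%) were matched within 200 bp in the strongest peaks of all 3 replicates, against 76.5% of all summits. The 52 summits with no protein-coding TSS within 1000 bp had a median of 1.01, and the 24 with such a TSS 1.03. The typical spread was also the same, with a median SD of log2 relative signal over the replicates of 0.29 at tRNA genes and 0.30 over all summits. Neighbouring summits can take the same replicate peak and are still counted separately in these values. Those at 2L, 2460146 and 2460348, both had 2.03, 1.32 and 1.71 in replicates 1, 2 and 3. Those at 3R, 10278775 and 10278979, both had 1.15, 1.36 and 0.90.

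**Figure D3:**
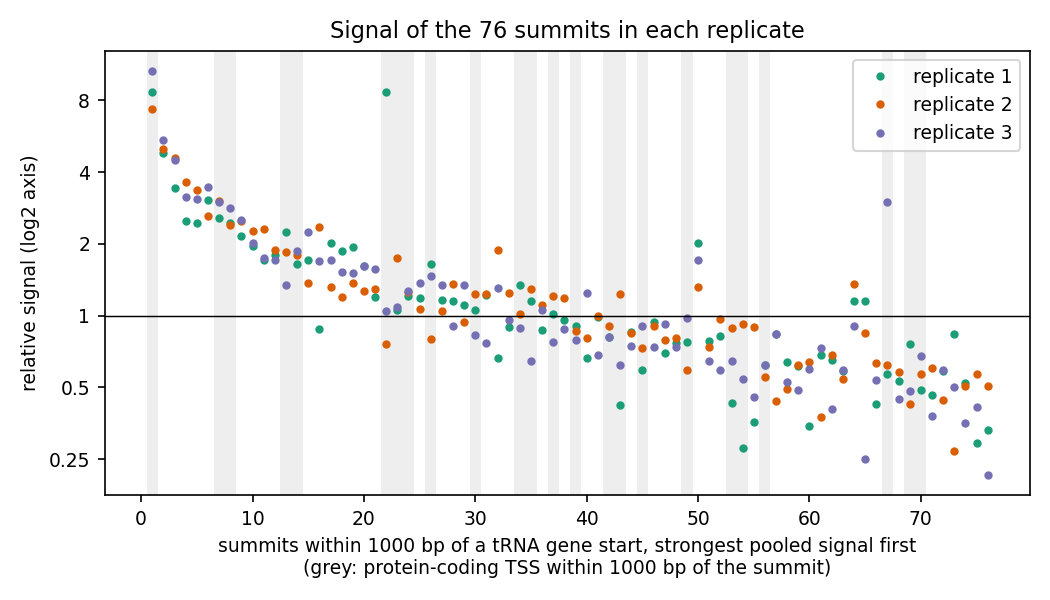
The plot of signal by summit shows the relative signal of the 76 summits at tRNA genes in each replicate (y axis, log2 scale, 1 is the replicate median), ordered by pooled signal (x axis), with grey bands where a protein-coding TSS lies within 1000 bp. The first summit stands at 7.37 to 10.6 in the 3 replicates, and lone high points further right arise where a replicate's value is shared with a stronger summit nearby, as the 8.64 of replicate 1 does.

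The strongest summit at a tRNA gene was also at a protein-coding start. It lay at 2L, 2009856, with relative signals of 8.64, 7.37 and 10.6 in replicates 1, 2 and 3, and ranked 56 among all summits. Its position is 3 bp from a TSS of CG4238 and 318 bp downstream of the start of tRNA:Gln-CTG-2-3, so the tRNA gene and the coding gene cannot be told apart by position. Among the 10 strongest summits at tRNA genes, those at tRNA:Tyr-GTA-1-8 and tRNA:Ala-AGC-2-10 also had a protein-coding TSS within 1000 bp. The first lay 216 bp from CG8036 with relative signals of 2.56, 3.02 and 3.00. The second lay 499 bp from CG45045 with 2.45, 2.39 and 2.84. In each of these 3 cases all replicates stood above their median. The 10 sites were picked by the pooled signal of the same replicates, so high values in each replicate are no separate support.

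The other 7 had no such start within 1000 bp. The first, at 3L, 8059827, lay 469 bp downstream of the start of tRNA:Leu-CAG-1-2 and 1114 bp from bip1, with 4.81, 5.01 and 5.47. At 2R, 17392178, a summit 37 bp in front of tRNA:Ala-TGC-2-1 had 3.42, 4.60 and 4.50, with the nearest protein-coding TSS, of CG10939, at 2415 bp. At 2R, 14984197, a summit 211 bp downstream of the start of tRNA:Leu-AAG-1-1 and 2934 bp from pcs had 2.50, 3.62 and 3.15. All 3 replicates were above 2 at each of these sites.

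Further sites of this kind lay at leucine, tyrosine, alanine and glutamine genes. A summit 599 bp downstream of the start of tRNA:Leu-CAG-1-7 had 2.44, 3.38 and 3.08, with CG42590 at 1576 bp. The summit 93 bp in front of tRNA:Tyr-GTA-1-4, in the region printed above, had 3.05, 2.62 and 3.45, with the cytochrome P450 gene Cyp313b1 at 2940 bp. A summit 196 bp in front of tRNA:Ala-AGC-2-1 had 2.17, 2.50 and 2.52 and was 27561 bp from the nearest protein-coding TSS, that of bip1. These sites were above the median in all replicates.

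The summit 107 bp in front of tRNA:Gln-CTG-2-5 had 1.96, 2.26 and 2.01, with CG4238 at 1641 bp. The next in order without a coding start were a summit 284 bp in front of tRNA:Leu-CAG-1-6 (1.92 ± 0.34, SD, n = 3; Sarm, at 2486 bp), a summit 365 bp downstream of the start of tRNA:Ala-AGC-2-11 (1.80 ± 0.09; Acsx4, at 7815 bp) and a summit 479 bp downstream of the start of tRNA:Asn-GTT-1-10 (1.78 ± 0.43; the GTPase gene Arl8, at 12522 bp). Of the 100 bound tRNA genes, 21 had only summits that were nearer to a protein-coding TSS than to any tRNA TSS. By summit, 16 of 76 were nearer to a protein-coding TSS and 60 nearer to a tRNA TSS.

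Summits lay further from the start at bound tRNA genes than at bound protein-coding genes. The body of a tRNA gene, of median length 73 bp, held 3 of the 76 summits, and so short a body fills little of the window searched. For bound genes the nearest summit was at a median of 329 bp from the start, against 123 bp at bound protein-coding genes, and 12.0% of bound tRNA genes had it within 100 bp, against 43.5%. The nearest summit was 101 to 300 bp in front of the start at 27 of 100 tRNA genes and 101 to 300 bp downstream of the start at 8. At protein-coding genes those shares were 25.6% and 8.71%. Over the whole 1000 bp the nearest summit was in front of the start at 57 bound tRNA genes and downstream at 43. It was in front at 66.4% of bound protein-coding genes. For the 55 bound tRNA genes with no protein-coding TSS within 2000 bp the split was 29 to 26, and 14 to 7 at 101 to 300 bp. Of the 20 bound genes with no other tRNA gene within 5000 bp, 8 had the summit 101 to 300 bp in front and 2 that far downstream. Fragments of 200 to 800 bp limit how finely such distances can be read.

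The comparison with protein-coding genes therefore turned on the distance allowed. Within 250 bp, 39 tRNA genes (13.4%) and 26.8% of protein-coding genes were bound, and within 500 bp 62 tRNA genes (21.4%) and 31.9%. Within 2000 bp the order was the opposite, with 135 tRNA genes (46.6%) and 41.9%. The last genes inside 1000 bp were tRNA:Val-AAC-1-1 at 964 bp and tRNA:His-GTG-1-2 at 945 bp, and the first outside were tRNA:Leu-AAG-1-2 at 1006 bp and tRNA:Met-CAT-1-2 at 1018 bp. For genes with no protein-coding TSS within 2000 bp, tRNA genes stayed above other genes at each distance, at 14.4% against 3.10% within 250 bp, 22.2% against 5.42% within 500 bp and 43.1% against 14.5% within 2000 bp.

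**Figure D4:**
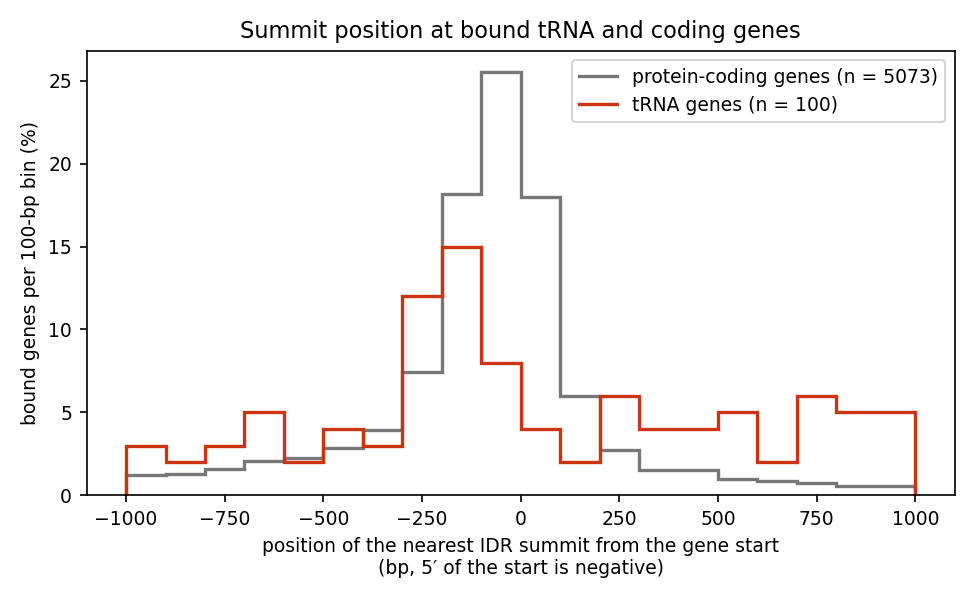
The plot of summit position shows where the nearest IDR summit lay from the gene start (x axis, bp, negative in front of the start) for the 100 bound tRNA genes and 5073 bound protein-coding genes, as the percentage of genes per 100-bp bin. Coding genes peak at the start, with 43.5% within 100 bp, while tRNA genes are highest 101 to 300 bp in front of it and hold 12.0% within 100 bp. A coding gene with several starts is measured from the one nearest to a summit.

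Clusters of tRNA genes were bound in an uneven way. With neighbours counted as clustered when their starts lay at most 5000 bp apart, 214 genes formed 68 clusters and 76 stood alone. A bound gene was found in 33 clusters (48.5%), every gene was bound in 20 of them, and 20 of the 76 lone genes (26.3%) were bound. A cluster has several starts and a longer stretch searched than a lone gene, which raises its share by construction. Over genes, 80 of the 214 clustered ones were bound (37.4%). The largest clusters, with 11 genes each, were among the less bound. The cluster at 2R, 6161535 to 6171759, has 8 of its 11 genes inside the ecdysone receptor gene EcR. It holds Arg, Asn, Ile and Lys genes and had 2 bound, and that at 3R, 17617761 to 17631750, holds Ala, Pro, Thr and Val genes and also had 2.

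The clusters with most bound genes were of leucine, glutamate and glutamine tRNAs. All 6 genes of the leucine cluster at 3L, 8060214 to 8068290, were bound in the reproducible list and in each replicate, through 3 summits with relative signals of 5.10 ± 0.34, 1.92 ± 0.34 and 2.97 ± 0.48 (SD, n = 3). All 5 genes of the glutamine cluster at 2L, 2009155 to 2013250, were bound in each replicate, through the summit at CG4238, 1 at 2.07 ± 0.16 and 1 with 8.64, 0.76 and 1.05 in replicates 1, 2 and 3, where replicate 1 has the value of the neighbouring summit. In the cluster at 2R, 19725620 to 19728958, 6 of 7 genes were bound, 2 initiator methionine and 4 glutamate genes, and 6, 6 and 5 were bound in replicates 1, 2 and 3. Its strongest summit had a relative signal of 1.03 as the mean of 3 replicates, and its nearest protein-coding TSS, of CG8517, was 12049 bp away.

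Among 10 clusters of 5 or more genes, 4 had no reproducible summit. They were 7 Ile and Leu genes within ATP8A (2R, 13430282 to 13432794), 6 Glu genes in the region of Ptp61F and CG32320 (3L, 1397695 to 1401852), 6 Cys and Lys genes within the chitinase gene Cht7 (3L, 3095737 to 3097590), and 7 Arg and Ser genes near Ste12DOR (X, 14014814 to 14017284). In the Cht7 cluster 5 genes were bound in replicate 1 and 0 in the other two, and in the remaining 3 clusters no gene was bound in any replicate. Weaker pooled peaks lay within 1000 bp of 7, 2, 5 and 3 of their genes, in that order.

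**Figure D5:**
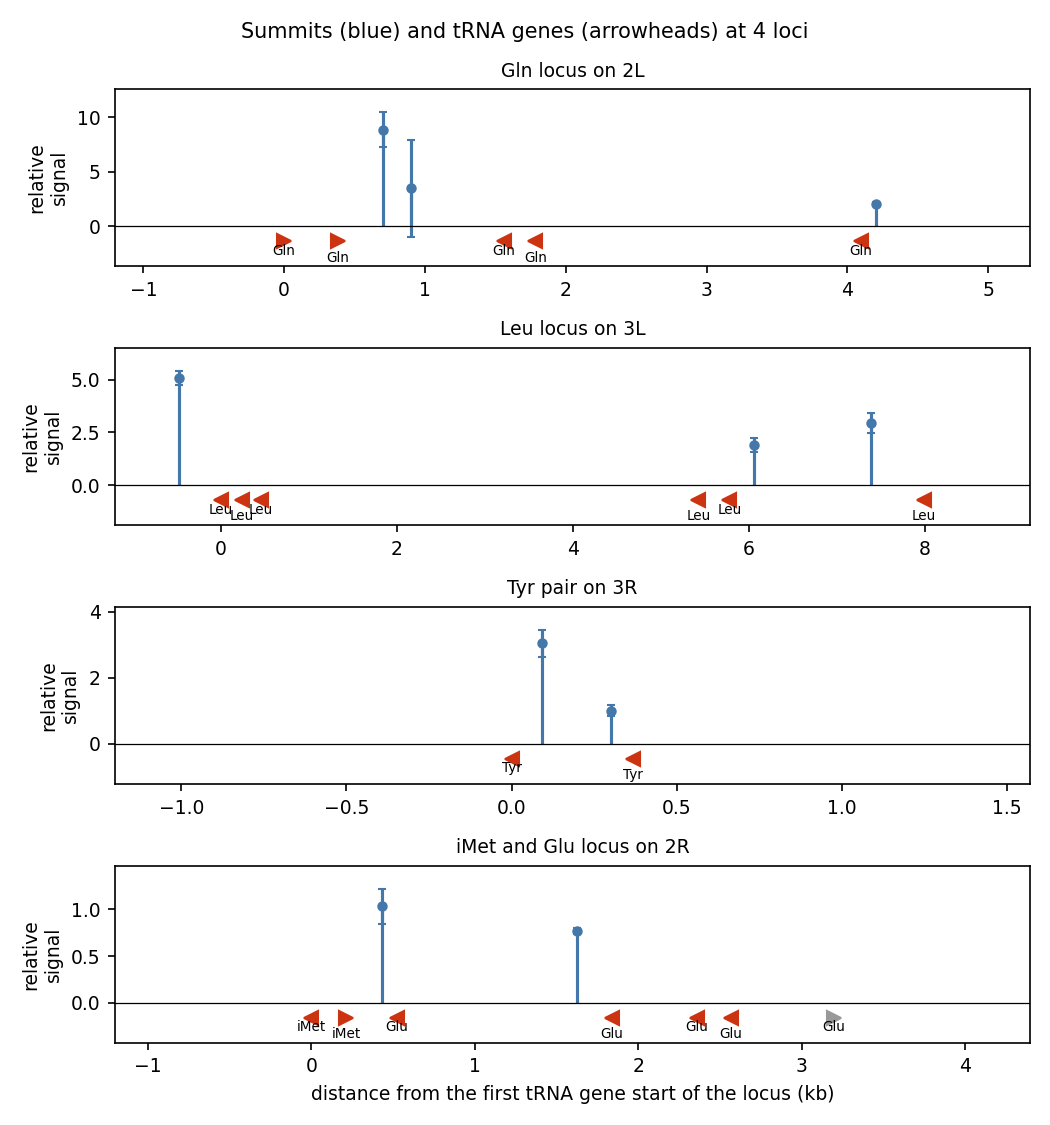
The maps of 4 loci show summits as blue points with the mean relative signal and its SD over 3 replicates (y axis) against distance from the first tRNA start (x axis, kb), and tRNA genes as arrowheads in the direction of transcription, red if bound and grey if not. Leu summits stand at 5.10, 1.92 and 2.97 around 6 genes, and the second Gln summit has a wide error because replicate 1 shares the value of its neighbour.

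The Maf core was as frequent at tRNA genes as at other sites. TGCTGAC, searched on both strands within 100 bp of the summit, was present at 6 of 76 summits (7.89%) and at 6.84% of all 10688. With no protein-coding TSS within 1000 bp it was present at 4 of 52 (7.69%). Base composition was also alike, with a median GC content over 201 bp of 40.8% at tRNA genes and 41.3% over all summits. As a marker of the B box, GTTCNANNC, where N is any base, was found on the coding strand in 271 of 290 tRNA genes, in 91.0% of bound and 94.7% of unbound ones. On either strand of the summit windows it was present at 12 of 76 (15.8%), against 5.42% of all summits. Windows that reach into a tRNA gene can hold that gene's own letters: 8 of the 12 windows that overlapped a tRNA gene had them, and 4 of the 64 that did not. A match to letters is not evidence of a bound site, and a window without one says only that these letters are absent from it.

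In 4 of the 6 summits with the core the sequence is printed to show how near the summit it lay. Each line gives the core in capitals with 20 bases on either side, on the plus strand, so GTCAGCA is the core on the minus strand. At tRNA:Leu-CAG-1-2 the middle of the core was 1 bp from the summit, at tRNA:Pro-TGG-1-5 24 bp, at tRNA:Met-CAT-2-1 45 bp and at tRNA:Asp-GTC-1-6 52 bp. The same distance was 28 bp at tRNA:Arg-ACG-1-3 and 39 bp at tRNA:Ala-TGC-2-1, whose sequences are not printed. The summit at tRNA:Arg-ACG-1-3 lay 468 bp from the tRNA start and only 52 bp from a TSS of EcR. That at tRNA:Met-CAT-2-1 lay 585 bp from the tRNA start and 566 bp from promL. Both were thus nearer to a protein-coding TSS.
tRNA:Leu-CAG-1-2 (chr3L:8059803-8059849): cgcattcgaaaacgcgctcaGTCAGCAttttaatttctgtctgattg
tRNA:Pro-TGG-1-5 (chr3R:18628610-18628656): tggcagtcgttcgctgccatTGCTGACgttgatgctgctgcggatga
tRNA:Met-CAT-2-1 (chr3L:3122531-3122577): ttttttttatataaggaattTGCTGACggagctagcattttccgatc
tRNA:Asp-GTC-1-6 (chr2L:8619754-8619800): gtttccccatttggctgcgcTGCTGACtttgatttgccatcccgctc

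Other genes that RNA polymerase III transcribes gave mixed values. The U6 spliceosomal RNA genes snRNA:U6:96Aa, snRNA:U6:96Ab and snRNA:U6:96Ac lie together and shared a strongest summit with relative signals of 0.41, 0.49 and 0.60 in replicates 1, 2 and 3. The 7SK RNA regulates transcription elongation, and snRNA:7SKa had a strong summit with 3.85, 3.94 and 3.80, while snRNA:7SKb had none. RNaseP:RNA, the RNA of the enzyme that trims the 5′ end of tRNA precursors, had 0.69, 0.65 and 0.85, and RNaseMRP:RNA had 0.36, 0.88 and 0.35. Both 7SL genes and snRNA:U6atac were unbound. None of the 99 genes with the rRNA biotype on the arms had a summit within 1000 bp. How the authors treated reads that map to several places is not known. For repeated genes, the absence of a summit therefore cannot be told from reads left unplaced.

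Of the protein-coding genes that serve tRNAs, those of the aminoacyl-tRNA synthetases, which load each tRNA with its amino acid, were bound most often. The 20 genes listed include no separate genes for mitochondrial synthetases, so their share is not that of the whole class. A promoter summit was present at 19 of the 20 (95%), against 36.4% of protein-coding genes, with CysRS the single unbound member. In replicates 1, 2 and 3 it was present at 19, 17 and 18. The strongest were SerRS, with relative signals of 4.34, 3.25 and 3.92, TyrRS with 3.85, 3.09 and 4.07, ValRS with 2.06, 1.88 and 2.49, and HisRS with 1.47, 1.81 and 1.68. All 4 stood above the median in each replicate, but they were picked as the strongest. Over the 18 bound members with a value in all 3 replicates the median relative signal was 1.15, and TrpRS, which lacks a value in replicate 2, had 0.59 and 0.43 in replicates 1 and 3. For 12 of the 19 the enzyme's own TSS was the protein-coding TSS nearest to the strongest summit, and for the others, SerRS among them, a neighbour's was nearer (CG17260 for SerRS).

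The machinery of transcription and processing had bound shares of 41.2 to 66.7%, beside 36.4% of all protein-coding genes. Many of these summits lay nearer to a neighbour's start. The gene's own TSS was the protein-coding TSS nearest to the strongest summit for 2 of 7 bound polymerase subunits and 1 of 6 bound factors. The same held for 4 of 5 bound processing genes and 2 of 8 bound modification genes. Of 17 RNA polymerase III subunits, including those shared with other polymerases, 7 had a summit (41.2%). The strongest were Polr1D (12.9 ± 1.96, SD, n = 3), whose summit was nearer to brat, Polr3F (4.29 ± 1.07, nearer to PyK), Polr3C (2.37 ± 0.16) and Polr3E (2.03 ± 0.37, nearer to CG10584). Of 9 factors that act with the polymerase, 6 were bound (66.7%). They included the TFIIIB subunit genes Bdp1 (2.67 ± 0.65, nearer to CG6565) and Brf (2.30 ± 0.35, nearer to sds22), and Pbp95 (2.14 ± 0.04, nearer to CG10435) and Pbp49 (1.38 ± 0.38, nearer to Pabp2) of the complex for small nuclear RNA promoters. The TATA-binding protein gene Tbp, its relative Trf, and Maf1, a repressor of the polymerase, were unbound.

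Of 10 genes for tRNA processing 5 were bound, with Pop1, a subunit of RNase P, at 1.22 ± 0.29 (nearer to Mlc-c), the ligase gene RtcB at 1.14 ± 0.45, the exportin gene Ranbp21 at 0.93 ± 0.06 and the 3′ end nuclease gene RNaseZ at 0.85 ± 0.23. Rpp30, Tsen34, Tsen54 and cbc were among the unbound members. Of 14 genes for tRNA modification 8 were bound (57.1%), led by the methyltransferase gene Trm7-34 (1.98 ± 0.66, nearer to Usp8), Ctu2 (1.58 ± 0.80, nearer to swm) and Trm1 (0.95 ± 0.43). The lists were not tested, and expression and promoter accessibility were not measured here.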

How the data were processed

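The members, gene lists and settings were chosen with earlier results of these data known. So were, with values in view, the distance classes, the splits by copy, host gene and locus size, the 101 to 300 bp bin, the other RNA polymerase III genes and the printed sequences. The B box letters were widened after a stricter form missed the tyrosine genes. The peak lists on dm6 comprise a list for each replicate, a pooled list, and the reproducible list of an irreproducible discovery rate (IDR) analysis. Per the files' accompanying descriptions, the authors derived each replicate list from its alignments and a control, and the deposited score of a peak, here called signal, is the caller's value with no stated unit. No source used here names the aligner, the peak caller or the IDR threshold, and read depth is unknown. Each replicate and pooled list held 30000 peaks and the IDR list 10688.

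Genes came from Ensembl release 115 (BDGP 6.54) without transposable elements, and sequence from the NCBI Release 6 assembly, on which all peaks fell within the chromosome ends. Isotypes were read from gene symbols. Signal in a replicate was that of its strongest summit within 200 bp of the IDR summit, divided by the replicate's median over the 10265 IDR summits with a match in all 3. A gene with several starts was bound if any had a summit within 1000 bp. All 70 pathway symbols matched 1 gene, 2 of them by an older symbol. Named genes were those at the 10 strongest summits, at the 10 strongest without a protein-coding TSS within 1000 bp, in the 3 most bound clusters and in unbound clusters of 5 or more, all initiator methionine and selenocysteine genes, and up to 4 members per pathway list. Some pathway members under this rule are not reported here. The synthetase CysRS falls under the rule's unbound members, and other named genes were picked after their values were seen. No test was run, since there is 1 group. The counting was tested on simulated data. Wilson intervals cover counting error only. Tables were computed in pandas 2.3.3 and NumPy 2.4.6 (Python 3.11.15), intervals in SciPy 1.17.1 and plots in Matplotlib 3.10.9. Lists on dm3 and signal tracks were not used here.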

Additional observations from a re-analysis of the deposited data

How the results depend on the processing

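The counts of bound genes, summits, clusters, summits with a protein-coding TSS and distant bound genes, and those of tyrosine, of lysine, aspartate and cysteine together, and of synthetase genes, were recomputed with other distances, peak sets and replicates. Cluster gaps were varied for clusters alone, and the other splits and lists were not recomputed. Within 250 bp of the TSS there were 39 bound tRNA genes, 38 distinct summits, 19 bound clusters, 8 summits with a protein-coding TSS within 1000 bp and 24 bound genes with no protein-coding TSS within 2000 bp. Within 500 bp there were 62 bound genes. Within 2000 bp 43 summits had a protein-coding TSS within 1000 bp. In the stronger 5344 peaks these numbers were 57 bound genes, 41 summits, 19 clusters, 14 summits with a protein-coding TSS and 28 distant bound genes. With a protein-coding TSS no nearer than 5000 bp, 35 distant genes were bound. These settings allow fewer peaks or genes, or more with the wider distance, by construction. The bound share of distant tRNA genes was above that of other distant genes in 11 of 11 other settings, by 2.74 to 4.84 times, and 3.40 times with the settings of the text. With replicates left out in turn, a peak of the IDR list counted where each remaining replicate had it among its strongest, which is a stricter filter and not a new peak call. Then 86 genes were bound in each case, with 63 to 65 summits, 28 to 29 clusters, 20 to 23 summits with a protein-coding TSS and 43 to 45 distant bound genes, and the median relative signal was 0.93 to 1.05, against 1.02. Taking the same number of strongest pooled peaks gave the same counts as the IDR list, and the same shares of other genes. It is therefore no separate check, although it is 1 of the 11 settings above. Tyrosine genes numbered 6 to 9 in all settings, and lysine, aspartate and cysteine genes together 0 to 8. Synthetase genes numbered 12 in the stronger 5344 peaks and 17 to 19 in the other settings. No paired analysis was possible because there is 1 group of samples, so no replicate number is shared between groups. The difference between gene classes in the text was taken within each replicate. Read depth is unknown, so the absence of a summit cannot be told from low coverage.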
